A study of Mus musculus with 3 samples.

Results

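The measurements below follow 6 genes of the myelin sheath, Mbp, Mobp, Mog, Mag, Mal and Cnp, in sorted mouse hippocampal microglia. They were taken by their symbols from the 31053 genes listed in each of 3 single-cell RNA runs, and all 6 were listed. The cells were tdTomato+ cells sorted from both hippocampi of mice carrying Cx3cr1CreERT2/+, Rosa26tdTomato/+ and NestinTK-eGFP/+, after tamoxifen at 100 mg/kg on 4 days. The labels give 12 animals, 6 male and 6 female, in 1 group of 3 runs. All of them carried these 3 alleles and received tamoxifen, so the runs hold no treated and control arms. The animals' ages and their assignment to runs are not given in the sources used here. The reporter marks cells in which the Cx3cr1 promoter was active when tamoxifen was given, which includes microglia and can include other myeloid cells. Per the labels' protocols, myelin was removed on magnetic columns before the sort.

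Cells were kept with at least 1000 UMIs (unique molecular identifiers, 1 per captured RNA molecule), 500 genes or more and no more than 10% of UMIs from mitochondrial genes. This left 6993, 6720 and 6078 cells in runs 1, 2 and 3, 19791 of 20376 barcodes, with medians of 4425, 3438 and 3696 UMIs per cell. All 12 microglial marker genes of a fixed list were above 10 CPM (UMIs of the gene per 1000000 UMIs of the summed cells), with a median of 2413 CPM. Cells with 3 or more detected markers of T and NK cells, border macrophages, choroid plexus, B cells or neutrophils were set apart. The remaining cells, between 98.3% and 99.1% of those kept, are called microglia-like. No microglial marker was required of them, and oligodendrocytes, astrocytes and neurons were not excluded by marker. Between 7 and 8 cell barcodes were shared by any pair of runs. The runs are the replicates (n = 3), and since nothing ties animals to runs, their spread may be technical.

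Oligodendrocytes wrap axons in myelin, a stack of membranes compacted by myelin basic protein (Mbp) with the help of Mobp. Mag and Mog are surface proteins of the inner and the outer myelin face, Mal is a membrane protein of lipid rafts, and Cnp is a phosphodiesterase of the cytoplasmic channels in myelin. Microglia are known to engulf myelin debris, and Mbp and Mobp transcripts are known to be carried out into oligodendrocyte processes. In the GENCODE M21 annotation of GRCm38, Mbp spans chromosome 18, 82475146 to 82585637, on the plus strand, and Mobp spans chromosome 9, 120149707 to 120181484, on the plus strand. Mog lies on chromosome 17, 37010743 to 37023398, Mag on chromosome 7, 30899176 to 30914873, and Mal on chromosome 2, 127633226 to 127656695, all on the minus strand. Cnp lies on chromosome 11, 100574904 to 100591729, on the plus strand, and overlaps Dnajc7 on the opposite strand over 8912 bases. Mobp overlaps the noncoding gene Gm38642 on the same strand over 2447 bases, so their reads may not be separable.

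Only Cnp, Mag and Mbp were present at a measurable level, and Mobp, Mog and Mal were almost absent. Cnp measured 54.5, 72.9 and 49.6 CPM in runs 1, 2 and 3, a mean of 59.0 ± 12.3 (SD, n = 3). Mag measured 29.8, 34.6 and 26.8 CPM (mean 30.4 ± 3.94, SD, n = 3), and Mbp 16.1, 12.7 and 14.7 CPM (mean 14.5 ± 1.68, SD, n = 3). The ranges of these genes over the runs did not overlap, and run 2 was the highest for Cnp and Mag and the lowest for Mbp. Mobp was found as 12, 7 and 3 UMIs, Mog as 3, 6 and 5 UMIs, and Mal as 4, 0 and 2 UMIs in the 3 runs. For Mal in run 2 the count of 0 in 6720 cells allowed up to 0.0549% of cells with a UMI (upper end of the exact 95% binomial interval). Neighbours in the order of Mobp, Mog and Mal did not differ beyond their counting error. A UMI count does not grow with transcript length, so these levels are compared as they stand. Divided by kilobases of exon, as full-length assays are scaled, the order of the leading 3 was the same, with Cnp at 15, 20 and 13.6 CPM per kilobase, Mag at 7.33, 8.51 and 6.59, and Mbp at 1.9, 1.5 and 1.73.

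**Figure D1:**
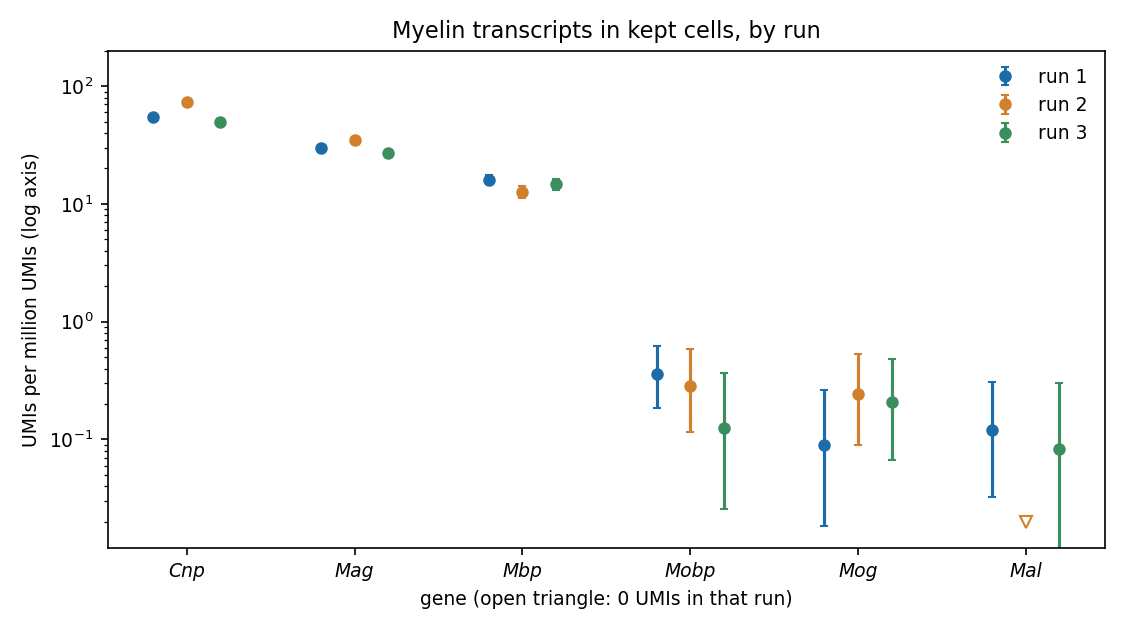
CPM (vertical, log axis) of the 6 myelin genes in the kept cells of each run, with exact 95% Poisson intervals that cover counting error only. Cnp, Mag and Mbp sit between 12.7 and 72.9 CPM and Mobp, Mog and Mal at 0.358 CPM or below, with Mal at 0 UMIs in run 2.

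The other oligodendrocyte genes showed the same split between a few measurable genes and an almost empty remainder. Of 28 other oligodendrocyte genes in a fixed list, 22 were under 1 CPM. The lineage regulator Sox10 had 0 UMIs in the 3 runs and Olig2 had 2 in all. Trf (transferrin), Sirt2 (a deacetylase) and Qdpr (an enzyme of biopterin recycling) together held 98.4%, 99.0% and 99.3% of the UMIs of that list, at mean levels of 825, 95.8 and 34.9 CPM.

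A UMI of any of the 6 genes was found in 35.8%, 34.5% and 29.1% of the kept cells, a mean of 33.1% ± 3.57 (SD, n = 3). Cnp was found in 21.6%, 22.8% and 16.9% of cells, Mag in 12.9%, 11.7% and 9.77%, and Mbp in 6.96%, 4.38% and 5.45%. These shares depend on depth, and when each cell of at least 2000 UMIs was thinned to 2000 UMIs the share with any member was 17.8%, 21.3% and 16.5%. That step left out 91, 386 and 169 shallower cells. At equal depth Cnp was found in 9.94%, 13.5% and 9.18%, Mag in 5.83%, 6.61% and 5.28%, and Mbp in 3.08%, 2.43% and 2.74% of cells. Run 2 then had the highest shares of Cnp and Mag, as it had the highest CPM.

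Levels were also read in cells with border macrophage markers, another cell type of the same libraries, where the source of the members' UMIs was not tested. Of these 79, 28 and 53 cells (median 8062, 3542 and 4325 UMIs), 43.0%, 32.1% and 13.2% had a Cnp UMI, at 65.9, 87.7 and 33.7 CPM. Mag was at 12.2, 26.3 and 15.0 CPM there, on 10, 3 and 4 UMIs, below its level over all kept cells in each run. Mbp was at 19.5, 0 and 18.7 CPM, on 16, 0 and 5 UMIs. The Cnp and Mbp levels of these few cells lay on both sides of those of all kept cells, and the part of free RNA in the members' counts was not tested. Cells with choroid plexus markers, which are not myeloid, numbered 36, 31 and 4 (median 4365, 2929 and 2124 UMIs) and held Cnp at 50.5, 52.3 and 0 CPM on 8, 6 and 0 UMIs. They held Mag on 4, 1 and 0 UMIs and Mbp on 2, 0 and 0 UMIs. All members together were at 88.3, 61.0 and 0 CPM there, below the 101, 120.8 and 91.5 CPM of the kept cells in each run, although in each run the exact 95% Poisson interval reached the level of the kept cells. T and NK cells, at 2, 3 and 8 cells, were fewer still.

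The members' levels followed no order over depth that was common to the runs. Over 5 bins of depth with equal numbers of cells Mbp ranged from 14.7 to 17.2 CPM in run 1, from 9.96 to 14.5 CPM in run 2 and from 12.4 to 16.6 CPM in run 3. Mag ranged from 26.3 to 32.5, from 30.7 to 36.1 and from 23.5 to 31.3 CPM over the same bins. Cnp in run 1 went from 47.5 CPM in the shallowest bin to 59.2 CPM in the deepest, and in runs 2 and 3 it showed no such order. Barcodes with RNA of Xist together with RNA of Y-linked genes, which can be doublets, numbered 237, 113 and 173. Their medians were 8612, 6764 and 4729 UMIs. Mag measured 32.2, 52.9 and 37.55 CPM in them, against 29.8, 34.6 and 26.8 CPM in all kept cells. The difference in run 1 was small, and whether these levels differ was not tested.

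The UMIs of all members were spread almost evenly by depth. If each UMI fell on a cell in proportion to that cell's depth, 37.3%, 34.8% and 29.8% of cells would hold a member UMI, so the observed shares were 0.960, 0.990 and 0.976 of that. The highest number of member UMIs in 1 cell was 6, 6 and 8. Cells with 4 different members numbered 0, 0 and 1 in runs 1, 2 and 3, and cells with 3 numbered 22, 16 and 7, against 24.3, 12.2 and 9.12 under independent detection at each cell's depth.

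Mbp departed most from an even spread among the 3 measurable members. In run 1, 49 cells held 2 or more Mbp UMIs against 22.8 expected. In run 2 it was 17 cells against 7.95, and in run 3 it was 21 cells against 11.15. The ratios were 2.15, 2.14 and 1.88 (mean 2.06 ± 0.151, SD, n = 3), and each run's exact 95% Poisson interval lay above 1. Mag had ratios of 1.27, 1.15 and 1.26 and Cnp of 1.15, 1.05 and 1.28, so both were closer to 1 than Mbp in every run. No kept cell held more than 3 Mbp UMIs, 4 Mag UMIs or 6 Cnp UMIs.

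Overdispersion (variance beyond counting noise, scaled to the squared mean) was a second measure, which put the members beside genes of known uneven spread. Among 7714 genes of at least 10 CPM, 93.6% had a lower overdispersion than Mbp, 66.2% lower than Mag and 59.8% lower than Cnp. Ttr, the choroid plexus gene for transthyretin, exceeded 99.99% of them, and Apoe, a lipid carrier, 99.6%. The astrocyte glutamate transporter gene Slc1a2 had 8.075, 9.32 and 19.9 times the expected cells with 2 or more UMIs, and the astrocyte aldolase gene Aldoc 7.31, 6.70 and 9.93 times. Both lay above Mbp in every run on this ratio of cells. On the same ratio Ttr gave 0.0173, 0.00902 and 0.0282 in runs 1, 2 and 3. Apoe gave 0.358, 0.392 and 0.367, and both lay below Mbp, Mag and Cnp. Thus the ratio does not rank unevenness between genes of unlike level.

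**Figure D2:**
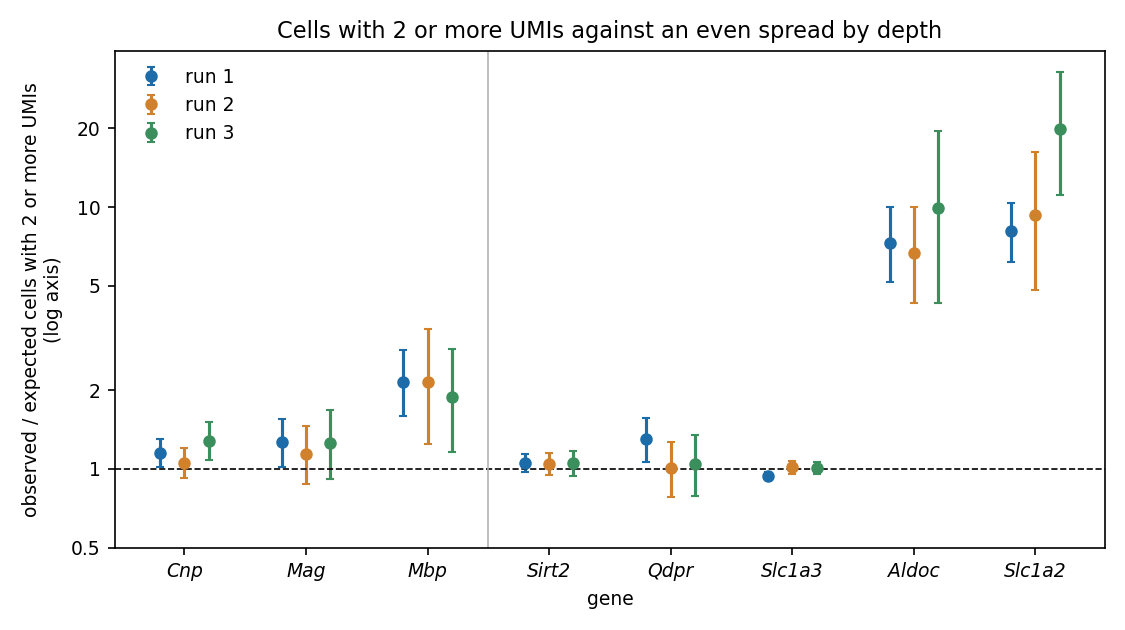
Observed over expected number of cells with 2 or more UMIs of a gene (vertical, log axis), by run, with exact 95% Poisson intervals of the observed count that cover counting error only. Cnp and Mag lie between 1.05 and 1.28, Mbp between 1.88 and 2.15, and Aldoc and Slc1a2 at 6.70 or above. The dashed line is an even spread by depth.

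Mbp, Mag and Cnp were found together about as often as their separate frequencies at each depth give. In cells thinned to 2000 UMIs the ratio of observed to expected co-detection was 0.985 ± 0.0739 for Mbp and Mag, 0.954 ± 0.126 for Mbp and Cnp, and 0.983 ± 0.0469 for Mag and Cnp (SD, n = 3). Each of these pairs lay above 1 in run 1 and below 1 in runs 2 and 3. Without thinning, and with expectations taken within 10 bins of depth, 141 cells held both Mbp and Mag against 143.5 expected, 251 held Mbp and Cnp against 254.1, and 528 held Mag and Cnp against 519.8. Cnp was found with Dnajc7, the gene that overlaps it on the other strand, at 0.976 ± 0.01999 of the expectation. Mag was found with its neighbour Cd22, which lies on the same strand 18833 bases away, in 32 cells against 30.89 (ratio 1.04, exact 95% Poisson interval 0.709 to 1.46). At 2000 UMIs that ratio was 1.33 ± 0.445, on 1.31 to 2.43 expected cells a run.

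Mobp was the member found with Mbp more often than its frequency gives. Its 22 UMIs fell in 22 kept cells, and 7 of these also held an Mbp UMI against 1.35 expected, a ratio of 5.185 (exact 95% Poisson interval 2.085 to 10.7). The 3 runs gave 3 cells against 0.809, 1 against 0.338 and 3 against 0.203. Every run lay above its expectation, and in run 3 the interval of that run alone excluded 1. Mobp was found with Mag in 5 cells against 2.74 expected and with Cnp in 9 against 4.796, with intervals of the ratio that included 1. Mal, on 6 UMIs, was found with Cnp in 5 cells against 1.45 expected (exact 95% Poisson interval of the ratio 1.12 to 8.05). In all, 15 pairs of members were compared without adjustment, and these are counts of cells within the same 3 libraries.

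Co-detection with astrocyte transcripts depended on the list and, for Cnp, lay slightly above independence with the smaller list. With a UMI of any of 20 astrocyte genes the ratio at 2000 UMIs was 0.964 ± 0.00535 for Mbp, 1.02 ± 0.00870 for Mag and 1.01 ± 0.0119 for Cnp (SD, n = 3). Slc1a3, a glutamate transporter gene, and S1pr1, a lipid receptor gene, were at 263 and 24.3 CPM and held 81.2%, 73.4% and 86.7% of that list's UMIs, so the list was also used without them. The ratio was then 1.24, 1.04 and 0.774 for Mbp in runs 1, 2 and 3 (mean 1.02 ± 0.234). For Cnp it was 1.11, 1.14 and 0.958 (mean 1.07 ± 0.0972), and for Mag the mean was 1.02 ± 0.0354. Run 1 lay above 1 and run 3 below 1 for both Mbp and Cnp. Without thinning, 736 cells held Cnp and a gene of the smaller list against 664.4 expected, a ratio of 1.108 (exact 95% Poisson interval 1.03 to 1.19). For Mbp it was 204 cells against 181.1, a ratio of 1.13 (0.977 to 1.29), and run 1 alone gave 1.24 (1.03 to 1.485). For Mag it was 368 cells against 371.7.

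**Figure D3:**
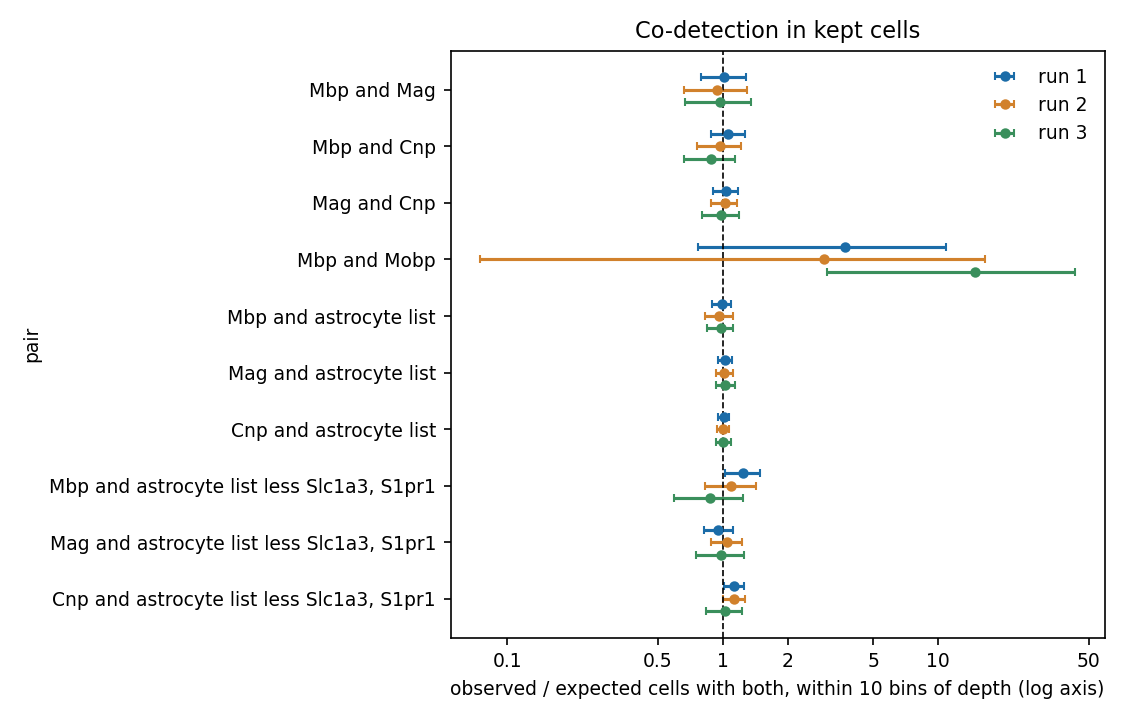
Observed over expected number of kept cells that held both partners (horizontal, log axis), with expectations within 10 bins of depth, by run, with exact 95% Poisson intervals that cover counting error only. The pairs of Mbp, Mag and Cnp lie near 1 (dashed line), and Mbp with Mobp lies at 3.71, 2.96 and 14.75 on 3, 1 and 3 cells.

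Levels were next compared by microglial state. For each of 4 gene lists, the microglia-like cells of a run with the highest share of UMIs from that list (top 5%, at least 2 UMIs of the list) were summed and tested against the sum of the others by the quasi-likelihood test of edgeR. The run entered as a block, and p-values were adjusted over all tested genes by the method of Benjamini and Hochberg. The gate on Ccl3 and Ccl4 held fewer cells, 100, 132 and 285, of which 26, 43 and 135 lay just inside it with 2 UMIs, while 185, 209 and 389 lay just outside with 1. Mobp, Mog and Mal did not reach the minimum count for these tests, so 3 of 6 members were tested. A gate is a range of a score and not a cell type, and from 120 to 137 cells of a run lay within 1 percentile of the cut of each other list. These gates hold more RNA of their own lists by construction, so only genes outside a list are read here.

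Cnp was higher in the cells with the most interferon-response transcripts (Ifit1, Ifit3, Isg15 and others). It measured 73.7, 94.35 and 60.3 CPM in these 343, 331 and 301 cells of runs 1, 2 and 3, against 53.2, 71.7 and 49.2 CPM in the other microglia-like cells. Each run moved upward, but run 3 of the interferon-high cells lay below run 2 of the other cells, so the groups overlapped across runs. Split by sex-linked transcripts, the log2 ratio of CPM + 1 was 0.48, 0.15 and -0.50 in Xist cells (64, 50 and 17 Cnp UMIs in the interferon-high cells) and 0.49, 0.84 and 0.22 in Y-linked cells (35, 32 and 22 UMIs). The rise was thus not seen in Xist cells of run 3, and the difference between these cells was not tested. The log2 change was 0.45 ± 0.09 (SE), adjusted p = 8.93e-05, in a comparison where 9.17% of 11617 genes passed (6.63% higher, 2.54% lower). Dnajc7, which overlaps Cnp, gave a log2 change of 0.10 ± 0.07 (adjusted p = 0.529). Mbp, at 12.97, 13.95 and 15.7 CPM, gave a log2 change of 0.01 ± 0.20 (adjusted p = 1.00), and Mag, at 29.5, 21.3 and 24.3 CPM, one of -0.22 ± 0.14 (adjusted p = 0.446). Of the 5 tested other oligodendrocyte genes 0 passed, with a median log2 change of -0.05 beside -0.02 for all genes. Of 12 microglial markers 10 fell in these cells, with a median log2 change of -0.20, and their part in the Cnp difference was not tested.

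The interferon-high cells also held more of Cxcl9 and Cxcl10, which are interferon-induced chemokines, and of Ms4a7 and Clec12a, which other macrophages carry, with log2 changes of 8.95, 6.89, 7.59 and 6.02. Between 13.9% and 16.6% of them were also in the top 5% for MHC class II transcripts. With the MHC class II-high cells left out, the number of genes that passed fell from 1065 to 395, and Cnp had a log2 change of 0.44 (adjusted p = 0.003215). Without the block for the run the adjusted p of Cnp was 0.880 at a log2 change of 0.44.

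The promoter of Cnp was read for the interferon response because of this difference. A motif of GAAA, any 2 bases and again GAAA, a core of the interferon-stimulated response element, was searched on both strands in the 250 bases before each of 32851 RefSeq gene starts (GRCm38.p6), and 2.98% of these windows held it. The windows of Cnp (chr11:100574689-100574938, plus strand) and, as a gene of the interferon list, Isg15 (chr4:156200819-156201068, minus strand) are given 5′ to 3′ with matches in capitals.
Cnp: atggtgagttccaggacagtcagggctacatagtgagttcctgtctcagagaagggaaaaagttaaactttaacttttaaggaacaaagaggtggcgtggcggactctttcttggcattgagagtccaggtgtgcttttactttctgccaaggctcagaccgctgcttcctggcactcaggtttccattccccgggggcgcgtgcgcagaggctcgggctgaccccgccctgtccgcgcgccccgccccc
Isg15: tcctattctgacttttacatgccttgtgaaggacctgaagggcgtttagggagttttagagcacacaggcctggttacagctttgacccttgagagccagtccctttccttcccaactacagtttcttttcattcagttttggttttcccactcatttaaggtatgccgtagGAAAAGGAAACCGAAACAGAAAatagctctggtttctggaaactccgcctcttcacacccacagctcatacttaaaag
The Isg15 window held 3 overlapping matches and those of Ifit1 and Ifit3 held 2 each. The windows of Cnp, Mag, Mobp, Mog and Mal held 0, which says only that these letters are not in those windows. Mbp had no window in the reference used, so it was not searched. The RefSeq start of Cnp differs from its GENCODE start, and its window ends inside the gene as placed above.

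The cells high for Ccl3 and Ccl4, chemokines of activated microglia, held 2 or more UMIs of this pair. They were deeper, with medians of 5350, 4394 and 3897 UMIs against 4408, 3426 and 3680 in the other microglia-like cells. Mag was lower in these high cells. It measured 16.65, 19.6 and 16.35 CPM there, on 10, 12 and 19 UMIs, against 30.6, 35.2 and 27.5 CPM in the other microglia-like cells. The groups did not overlap, and the share of all tested genes that separated in this way was not counted. The log2 change was -0.76 ± 0.21 (SE), adjusted p = 0.0236, where 9.91% of 11654 genes passed (6.18% higher, 3.73% lower). Mbp, at 8.33, 14.7 and 17.2 CPM, gave a log2 change of 0.02 ± 0.28 (adjusted p = 0.991), and Cnp, at 48.3, 44.1 and 49.05 CPM, one of -0.23 ± 0.16 (adjusted p = 0.461). The call of Mag did not hold with the DESeq2 Wald test (adjusted p = 0.197), without the block (adjusted p = 0.205), without the MHC class II-high cells (adjusted p = 0.0559), or without any 1 of the runs (adjusted p from 0.0523 to 0.150). Over all 12 alternatives its log2 change stayed between -0.83 and -0.70. Cd22, the neighbour of Mag, had a log2 change of 1.12 ± 0.55 (adjusted p = 0.242). Sirt2 rose by 0.49 on the log2 scale, as 1 of 5 tested other oligodendrocyte genes. Of 12 microglial markers 10 fell, with a median log2 change of -0.38, and their part in the Mag difference was not tested.

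In the cells with the most lipid-associated transcripts (Apoe, Lpl, Spp1 and others), a state known for handling myelin debris, no member passed the test. This gate was mixed, with more Ms4a7 and Clec12a, which other macrophages carry, at log2 changes of 8.46 and 5.66. Between 17.3% and 19.8% of its cells were also in the top 5% for MHC class II transcripts. No member passed in any of 12 alternatives, including that without the MHC class II-high cells. The part of macrophages in the gate was not tested. Mag measured 22.35, 24.9 and 21.0 CPM against 30.85, 35.4 and 27.3 CPM, with no overlap between the groups. How common such a separation was among all tested genes was not counted. Its log2 change of -0.32 ± 0.14 had an adjusted p of 0.109, in a comparison where 20% of 11608 genes passed (11.0% higher, 9.01% lower). Mbp measured 17.0, 16.1 and 13.5 CPM against 15.9, 12.65 and 14.6 CPM (log2 change 0.25 ± 0.18, adjusted p = 0.409), with overlapping groups. Cnp measured 57.5, 49.1 and 45.7 CPM against 54.05, 74.3 and 50.1 CPM (log2 change -0.06 ± 0.11, adjusted p = 0.803). Of the 5 tested other oligodendrocyte genes, Sirt2 and Trf passed as higher, by log2 changes of 0.40 and 0.18. The median of the 5 was 0.40 beside -0.03 for all genes. In CPM Trf measured 699, 1016 and 819 against 642, 1018 and 807, so it was not higher in run 2. The fit rescales the sums (TMM), so its log2 changes can differ from ratios of CPM. Cd22, the neighbour of Mag, rose by 2.01 ± 0.32 on the log2 scale (adjusted p = 4.82e-05).

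Genes of uptake and of lipid handling changed in the same lipid-list high cells while the members did not pass. The genes of the lipid list itself are left out of these counts. Whether the changes lay in microglia or in the gate's cells with macrophage or MHC class II transcripts was not tested. Of the remaining 15 uptake genes 14 were tested, and by the fit 9 rose and 2 fell, with a median log2 change of 0.27. Fcgr3, counted as a rise, was lower in CPM in runs 2 and 3, at 1236 and 1044 against 1303 and 1073. Cd36, a scavenger receptor, rose from 0.424, 0.131 and 0.223 to 6.39, 8.79 and 12.7 CPM, by 5.14 ± 0.52 on the log2 scale. Mertk, a receptor for dying cells, fell by 0.26 on that scale. Of the remaining 17 lipid-handling genes 15 were tested, and 11 rose and 0 fell, with a median log2 change of 0.56. The 12 microglial markers all fell, with a median log2 change of -0.39, and whether they bear on the members' levels was not tested.

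In the remaining gates the 3 tested members did not pass. In cells high for immediate early genes, which dissociation is known to induce, Mbp measured 15.0, 9.36 and 10.2 CPM (log2 change -0.32 ± 0.21, adjusted p = 0.746), where 0.849% of 11665 genes passed (0.703% higher, 0.146% lower). In cells high for astrocyte transcripts Mbp measured 14.1, 9.48 and 7.93 CPM, below the 16.0, 12.99 and 14.9 CPM of the other cells in each run (log2 change -0.47 ± 0.23, adjusted p = 0.5045), where 1.48% of 11720 genes passed (0.708% higher, 0.776% lower). Mag there measured 32.4, 29.4 and 34.7 CPM and Cnp 56.3, 87.2 and 45.6 CPM, with log2 changes of 0.04 ± 0.14 and 0.06 ± 0.10. In the same cells 2 of 8 tested other oligodendrocyte genes rose, Car2 (carbonic anhydrase) and Cryab (a small heat shock protein), which astrocytes can also carry. Cells high for cell-cycle genes held Mbp, Mag and Cnp at 15.4 ± 1.75, 23.7 ± 5.51 and 58.2 ± 2.58 CPM, and cells high for MHC class II genes at 15.4 ± 2.34, 26.2 ± 5.57 and 68.4 ± 15.0 CPM (SD, n = 3), both without a test. Cells in none of the lists held 14.8 ± 1.79, 31.8 ± 4.47 and 58.5 ± 12.5 CPM.

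**Figure D4:**
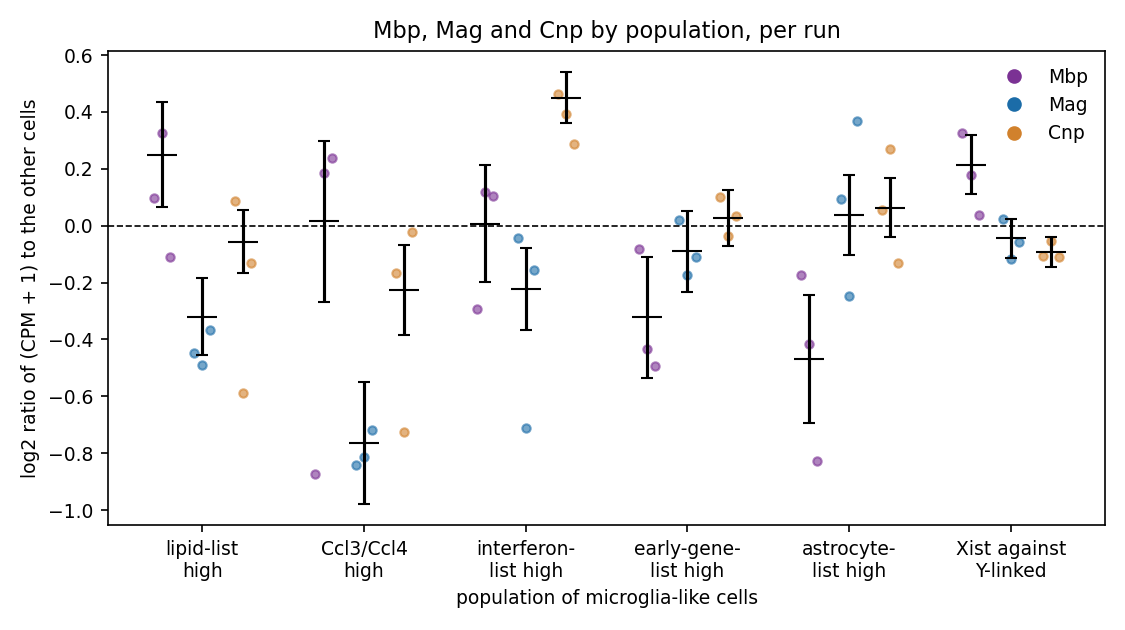
Log2 ratio of CPM + 1 in a population of microglia-like cells to that in the others (vertical), for Mbp, Mag and Cnp, with 1 point per run, and the fitted log2 change with its SE as a black bar. The points are not rescaled by TMM as the fit is, so a bar can lie outside its points. Cnp is above 0 in every run of the interferon-list high cells (fitted 0.45) and Mag is below 0 in every run of the Ccl3 and Ccl4 high cells (fitted -0.76).

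Cells with at least 2 Xist UMIs and no Y-linked UMI, and cells with Y-linked UMIs and no Xist UMI, taken to come from female and male mice, differed in no member past the threshold. Mbp measured 17.6, 12.9 and 14.7 CPM in Xist cells and 13.8, 11.3 and 14.3 CPM in Y-linked cells (log2 change 0.21 ± 0.10, adjusted p = 0.595), higher in Xist cells in 3 of 3 runs. Cnp was lower in Xist cells in 3 of 3 runs, at 52.2, 73.1 and 48.0 CPM against 56.2, 76.0 and 51.9 CPM (log2 change -0.09 ± 0.05, adjusted p = 0.661). Mag gave a log2 change of -0.04 ± 0.07 (adjusted p = 0.910). In this comparison 0.244% of 11459 genes passed (0.131% higher, 0.113% lower), and the count was 172 without run 2.

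Microglia-like cells with 2 or more different members were then set against cells with none, for all genes but the members. These 372, 287 and 183 cells were deeper, with medians of 5098, 4130 and 4300 UMIs against 4267, 3309 and 3614. Of 11260 genes 1.03% passed, 112 higher (0.995%) and 4 lower (0.0355%), and 42 passed without run 2. The leading genes were Top2a and Ube2c, which act in mitosis, Vim (an intermediate filament gene), Lgals3 (a galectin gene), Spp1 (osteopontin), S100a4, Crip1, Plbd1, Ifitm2 and the MHC class II gene H2-Aa. Vim rose from 3.33, 4.61 and 3.66 to 10.2, 72.3 and 250.5 CPM, and Crip1 from 9.95, 16.1 and 9.37 to 11.9, 84.8 and 333 CPM, both most in run 3 and least in run 1. When only cells of 2000 to 5000 UMIs were used, 8 genes passed, 1 higher and 7 lower. In the comparison of 11260 genes over cells of all depths, 0 of the 5 tested other oligodendrocyte genes, 11 astrocyte genes and 12 microglial markers passed.

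By likeness, the genes whose level followed the members' sum most closely over 8 populations of each run (the 7 gates and the cells in none) were Rab24, Fcgr1, Ms4a6d, Ppfia4 and Cmtm7, with Pearson r of log2(CPM + 1) from 0.81 to 0.84 over 24 points among 6255 genes of at least 20 CPM. The points share libraries, some share cells, and the sum is mostly Cnp, so this is a description.

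Barcodes with over 10% mitochondrial UMIs, which the filter removes, differed sharply from the kept cells in Mbp. There were 95, 20 and 20 of them with at least 1000 UMIs and 500 genes, and the comparison was added after the data had been seen. Mbp measured 245.5, 554 and 158 CPM there, on 114, 36 and 8 UMIs, against 16.1, 12.7 and 14.7 CPM in the kept cells. The log2 change was 4.63 ± 0.34 (SE), adjusted p = 9.8e-40, where 13.8% of 11647 genes passed (8.02% higher, 5.83% lower), and it held in all 8 alternatives with log2 changes from 4.21 to 5.73. Mobp measured 30.15 and 92.4 CPM in runs 1 and 2, on 14 and 6 UMIs, and 0 in run 3, and it was tested only without the filter on low counts (log2 change 7.24 ± 0.87, adjusted p = 5.15e-15) and without run 3. These barcodes held 1.365%, 0.264% and 0.210% of the UMIs in runs 1, 2 and 3, but 17.5%, 10.3% and 2.22% of the Mbp UMIs and, in runs 1 and 2, 53.8% and 46.2% of the Mobp UMIs.

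Mag and Cnp did not pass in these barcodes. Mag measured 23.7, 0 and 19.8 CPM on 11, 0 and 1 UMIs (log2 change -0.20 ± 0.57, adjusted p = 0.866). Cnp measured 84.0, 46.2 and 0 CPM on 39, 3 and 0 UMIs (log2 change 0.46 ± 0.41, adjusted p = 0.522), and without run 3 its log2 change was 0.96 (adjusted p = 0.0441). Both had sums of few UMIs, and the directions of both turned under other alternatives. The difference between Mbp and Mag or Cnp in this response was not tested.

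Other oligodendrocyte genes rose in the same barcodes, and so did genes of several other cell types, whose part in the Mbp result was not tested. Of 8 tested genes 5 rose, among them Car2 (183, 246 and 198 CPM), Bcas1 (43.1, 30.8 and 39.5 CPM), Cryab (105, 123 and 98.8 CPM) and Olig1 (43.1, 30.8 and 39.5 CPM). Of 19 tested astrocyte genes 18 rose, of 9 neuronal genes 7, and of 8 choroid plexus genes 8, while the 12 microglial markers all fell. The astrocyte list without Slc1a3 and S1pr1 summed to 13650, 12360 and 6379 CPM against 85.9, 84.7 and 39.2 CPM in the kept cells. The microglial P2ry12, a purine receptor, measured 823, 1539 and 810 CPM against 3690, 4889 and 3477 CPM. The median log2 change of all genes was -0.38, and -0.18 with DESeq2 size factors, so changes are to be read against that shift. By that scaling 1139 genes rose and 493 fell, against 934 and 679. Without run 1, which holds most of these barcodes, 485 genes passed, and without run 2 it was 815, against 1613.

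In kept cells with 5% to 10% mitochondrial UMIs, just inside the filter, Mbp measured 13.9, 10.2 and 6.20 CPM, on 27, 6 and 8 UMIs. In cells with under 2% it measured 13.8, 13.9 and 14.8 CPM and from 2% to 5% it measured 17.0, 11.9 and 15.3 CPM, so no step toward the excluded barcodes was seen. The astrocyte list without Slc1a3 and S1pr1 did step up over the same ranges, from 38.0, 56.5 and 27.5 CPM to 76.9, 89.5 and 39.2 CPM and then 395, 509 and 97.7 CPM.

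**Figure D5:**
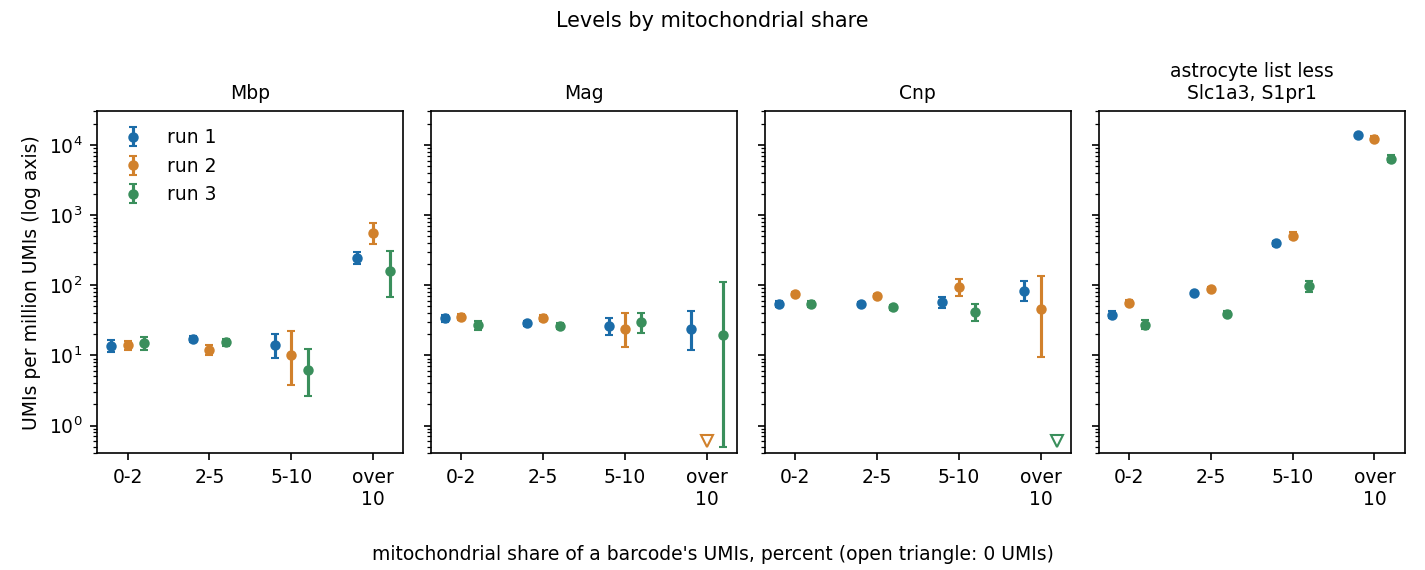
CPM (vertical, log axis) of Mbp, Mag, Cnp and the summed astrocyte list without Slc1a3 and S1pr1, by the mitochondrial share of a barcode's UMIs (horizontal, percent), by run, with exact 95% Poisson intervals that cover counting error only. Mbp lies between 6.20 and 17.0 CPM in the 3 ranges of kept cells and between 158 and 554 CPM over 10%, while Mag and Cnp show no such step and the astrocyte list rises over every range.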

How the data were processed

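Hippocampal tdTomato+ cells were profiled in 3 runs with 10x Genomics libraries. The authors deposited a matrix of raw counts for each run, with genes by barcodes, and its unit is UMIs. Per the submitters' processing notes, Cell Ranger, Seurat 4.0 and the build mm10 were used, while version 3.0.2 (run 1) or 3.1.0 (runs 2 and 3) of the software is named per the file headers. How barcodes were chosen is not given in the sources used here, and no deposited barcode had under 500, 501 and 500 UMIs in runs 1, 2 and 3. Reads from overlapping genes, and free RNA in droplets, can enter these counts.

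Members and lists were chosen with earlier results of these data known. Of the 31053 genes listed, 99.6% matched GENCODE M21. The kept cells held 33547705, 24534691 and 24073809 UMIs, and 3389, 2964 and 2203 were of the members. Doublets were not called. Leaving out barcodes positive for Xist together with Y-linked genes was an alternative. Shares at 2000 UMIs are hypergeometric expectations. Intervals are exact (Poisson or Clopper-Pearson, 95%) and cover counting error only.

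For each population the counts of a run were added up, and edgeR 4.0.16 (quasi-likelihood test, filterByExpr, TMM, run as block, R 4.3.3) was used in 8 comparisons, 1 of them added after seeing the data. Adjusted p-values are Benjamini-Hochberg values over all tested genes, with a threshold of 0.05. The populations compared within a run are parts of 1 library. Deviations of the 2 sums of a run from the means over runs correlated between 0.11 and 0.67 in all cases but run 3 of the mitochondrial comparison (0.088), so the run was kept as a block. Alternatives were DESeq2 1.42.0 size factors and its Wald test, no filter, no block, each run left out, stricter cell filters and narrower gates. The tests were also run on simulated counts with 200 changed genes. These counts held no run effect and no link between the 2 sums of a run, so they do not check the block. Named genes were the members and, per comparison, at most 10 genes in each direction by log2 change, of at least 20 CPM, past the threshold, with a log2 change of at least 1 and the same direction in 3 runs, besides genes of the lists. Cd22 and Dnajc7 were chosen by position.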

Additional observations from a re-analysis of the deposited data

Results flagged for a closer look

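Mbp was also found in the barcodes with under 1000 UMIs or 500 genes, which no comparison of the report used. It measured 163, 118 and 79.1 CPM there in runs 1, 2 and 3, a mean of 120.2 CPM, on 21, 14 and 8 UMIs in 167, 155 and 128 barcodes. In each run the exact 95% Poisson interval lay above that of the kept cells. The signal lay mainly in barcodes with over 10% mitochondrial UMIs, since those with at most 10% held 3, 2 and 3 Mbp UMIs. The same barcodes held the astrocyte list without Slc1a3 and S1pr1 at 6155, 3416 and 3371 CPM, and its part in the Mbp level was not tested. Mag was at 0, 0 and 2 UMIs and Cnp at 5, 4 and 2 UMIs in them.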

How the results depend on the processing

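The population sums of a run come from 1 library, so the fits carry the run as a block. With no replicate block the count of genes passing fell to 403 for the lipid list, 145 for Ccl3 and Ccl4, 227 for interferon, 0 for early genes (by edgeR, with 318 at an unadjusted p under 0.05, and 57 by the DESeq2 Wald test with the block), 24 for astrocyte-high cells, 14 for cells with 2 or more members and 5 for Xist against Y-linked cells, while it rose from 1613 to 1871 for barcodes over 10% mitochondrial. Among members the missing block ended the calls of Cnp in interferon-high cells (adjusted p = 0.880) and of Mag in Ccl3 and Ccl4 high cells (adjusted p = 0.205), and it changed no other call of Mbp, Mag or Cnp. With the DESeq2 Wald test the counts were 1447, 675, 660, 57, 86 and 64 for the first 6 of these comparisons and 943 for barcodes over 10% mitochondrial. Without the filter on low counts they were 205 for early genes, 328 for astrocyte-high cells, 220 for cells with 2 or more members, 166 for Xist cells and 2634 for the mitochondrial comparison. The interferon count was 395 without MHC class II-high cells, the astrocyte count 113 with a top 2% gate, the count for cells with 2 or more members 8 within 2000 to 5000 UMIs, and the Xist count 48 with stricter cell filters. Leaving out 1 run each gave counts from 601 (without run 2) to 1458 for Ccl3 and Ccl4, from 689 (without run 1) to 990 for interferon, from 33 (without run 2) to 184 (without run 1) for early genes, from 92 (without run 1) to 179 for astrocyte-high cells, from 42 (without run 2) to 158 for cells with 2 or more members, from 20 to 172 (without run 2) for Xist cells and from 485 (without run 1) to 1772 for the mitochondrial comparison. By DESeq2 size factors 89 genes rose and 65 fell in astrocyte-high cells, against 83 and 91. The co-detection ratio of Mbp and Mag was 1.07 when thinned to 1000 UMIs. The cause of these differences was not tested.

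Directions turned only for member values that did not pass the test. Cnp in lipid-high cells gave 0.012 with a top 2% gate and from -0.26 to 0.15 on leaving out a run. Mbp in Ccl3 and Ccl4 high cells gave -0.0083 with the Wald test, -0.013 without the filter, -0.096 with stricter cell filters, -0.16 with a top 2% gate, -0.19 without MHC class II-high cells, -0.0095 without astrocyte-high cells, and from -0.26 to 0.27 on leaving out a run. Mbp in interferon-high cells gave -0.040 without the filter, -0.17 without MHC class II-high cells and from -0.068 to 0.17 on leaving out a run. In early-gene high cells Mag gave 0.016 with a top 2% gate, and Cnp gave -0.0065 without the filter, -0.090 with a top 2% gate, -0.0079 without astrocyte-high cells and from -0.0072 to 0.083 on leaving out a run. In astrocyte-high cells Mbp gave 0.19 with the list less Slc1a3 and S1pr1, and on leaving out a run Mag gave from -0.079 to 0.20 and Cnp from -0.039 to 0.15. In barcodes over 10% mitochondrial Mag gave 0.016 with DESeq2 size factors, 0.28 over 20% mitochondrial and from -1.62 to 0.22 on leaving out a run, and Cnp from -1.07 to 0.96. All are log2 changes. Mobp, Mog and Mal, with 42 UMIs in all, were tested by state only without the filter on low counts, where none of them passed in the 5 states (edgeR, adjusted p from 0.854 to 0.9998, SE from 1.64 to 8.47, lowest unadjusted p 0.3116).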
